A study of Mus musculus with 22 samples.

Results

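Mouse embryonic stem (ES) cells labelled as Dux knockouts were compared with E14 cells across 14796 genes, in 6 of the 22 RNA-seq libraries of the series, chosen by their titles. The 3 libraries titled Dux-KO stand for 3 different clones, numbered 15, 22 and 52, made by CRISPR-Cas9. The 3 titled E14-chen, numbered 1 to 3, are called E14 here, after the ES cell line, and the design text speaks of wild type (WT). Neither group received a compound, and all cells grew in serum with LIF. Each clone is 1 line and gave 1 library, so the knockout and whatever else separates an edited clone from E14 cannot be told apart. The titles name no culture, day or batch, so p-values measure the spread among these libraries, which may be technical for E14. Another 4 untreated libraries, titled Duxnto1 (Dux n=1 in the design text, clones 17, 22, 31 and 40), entered the fit for its spread and were not compared. The DMSO libraries titled Dux-KO22 and WT, 2 each from a 3-day experiment, were used as a separate comparison that shares no library with the first. Its Dux-KO22 libraries carry 1 clone number. Its p-values and SEs measure the spread between libraries of the same title, which may be technical, and cannot speak for other knockout clones.

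The double homeobox factor DUX is made briefly at the 2-cell stage of the mouse embryo, where it switches on the genes of that stage. In ES cell cultures a small, changing share of cells expresses Dux and its targets, and the other cells express the pluripotency network of the inner cell mass. A clone grown from 1 edited cell can also differ from its parent line in karyotype, imprinting, metabolism and the balance of early differentiation, and these gene groups are described here across the genome.

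Depth was even, with 17654369 to 19384356 counts per library. Mitochondrially encoded genes took 2.75% to 2.99% of counts in E14 and 2.03% to 2.39% in the Dux-KO libraries. The 7 ES cell markers (Pou5f1, Sox2, Nanog, Zfp42, Esrrb, Utf1 and Dppa5a) summed to 4515 to 4922 CPM (counts scaled to the library total) in E14 and 4893 to 5936 CPM in the Dux-KO libraries. Among 7 feeder fibroblast markers, Col3a1, Lum, Dcn and Postn had 0 counts in all 6 libraries.

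The targeted gene could not check the labels. Duxf3, the annotated Dux gene, had 1, 0 and 0 counts in E14 1, 2 and 3 and 0, 5 and 1 counts in the libraries labelled Dux-KO 15, 22 and 52. Gm4981, a second member of the Dux family, had 0, 0 and 1 counts in E14 and 0 in all Dux-KO libraries. Fragments from near-identical Dux copies were not counted where they mapped to several places. The largest Duxf3 count was thus in a library labelled knockout, and the library labelled Dux-KO 22 is treated as doubtful throughout.

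Chromosome 6 also set that library apart. The median difference from the E14 mean over 689 tested genes of chromosome 6 was 0.27 (log2) in the library labelled 15 and 0.31 in that labelled 52, against -0.09 in that labelled 22. Each E14 library differed from the mean of the other E14 libraries by -0.02 to 0.02. With an offset for GC content the values were 0.34, -0.05 and 0.39. In the DMSO set, both libraries titled KO22 had a chromosome 6 median of 0.26 and 0.27 over WT. The DMSO libraries that share the clone number 22 thus had the raised chromosome 6 that the untreated library labelled 22 lacked. Among the Dux n=1 libraries the medians were -0.08, -0.08, -0.06 and 0.29 for clones 17, 22, 31 and 40. Whether a library was exchanged was not tested, and results are given with and without the one labelled Dux-KO 22.

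**Figure D1:**
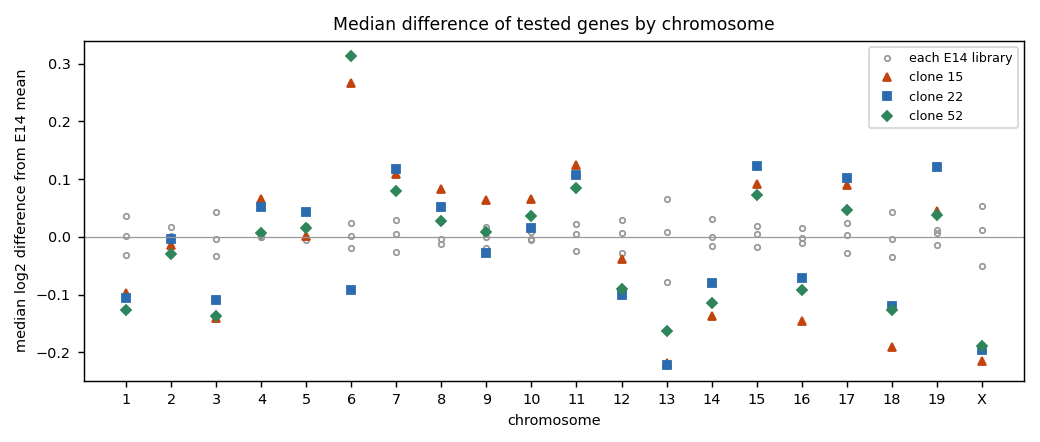
Median log2 difference from E14 over the tested genes of each chromosome, one point per Dux-KO library (triangle 15, square 22, diamond 52), with each E14 library against the other E14 libraries as open circles. On chromosome 6 the libraries labelled 15 and 52 lie at 0.27 and 0.31 and the one labelled 22 at -0.09; on the other chromosomes the 3 libraries lie close together.

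The rise was not even along chromosome 6 (GRCm38). Over 193 genes between 120000001 and 150000000, the medians in the libraries labelled 15, 22 and 52 were 0.50, -0.01 and 0.56. Between 60000001 and 90000000 they were 0.07, -0.08 and 0.00 over 140 genes, so the libraries labelled 15 and 52 stood near E14 there.

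In that fit (edgeR quasi-likelihood test, Benjamini-Hochberg adjusted p below 0.05), 3016 genes were called, 20.4% of those tested. Higher calls in Dux-KO numbered 1370 (9.26%) and lower calls 1646 (11.1%). The 3 Dux-KO libraries lay above all E14 libraries for 3498 genes (23.6%) and below them for 3177 (21.5%). The clones did not contribute evenly. Over the called genes, the library labelled 15 was farthest from E14 for 73.0% and the one labelled 22 was nearest for 56.2%. The median change in the direction of the call was 1.04, 0.62 and 0.73 (log2) in the libraries labelled 15, 22 and 52. Without the library labelled 22, 1685 genes were called higher and 1887 lower. Without E14 1 the call count was 931, without E14 3 it was 1171, without E14 2 it was 1739 and without Dux-KO 15 it was 1977. Higher and lower calls were 373 and 558 without E14 1, 701 and 1038 without E14 2, and 442 and 729 without E14 3. They were 832 and 1145 without Dux-KO 15, and 965 and 1151 without Dux-KO 52. Counts of list members in such fits, given below, stand beside these totals over all genes. List counts in the main fit stand beside 9.26% higher and 11.1% lower. On chromosome 6, 87 of 689 genes were called higher (12.6%) and 23 lower (3.34%).

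Base composition moved with the groups. The log2 level changed per 10 percentage points of transcript GC by -0.37, -0.22 and -0.29 in E14 1, 2 and 3, relative to the mean of all 10 untreated libraries. The slopes were 0.35, 0.15 and 0.14 in the libraries labelled Dux-KO 15, 22 and 52, and 0.02 to 0.09 in Dux n=1. In the fifth of genes with the lowest GC (29.6% to 44.1%), 1113 genes were called lower and 15 higher. In the fifth with the highest GC (55.7% to 76.3%), 27 were called lower and 646 higher. Long genes followed the same pattern: in the fifth with the longest transcripts (6545 bases or more), 674 genes were called lower and 186 higher. With a per-library GC offset, 530 genes were called higher and 421 lower, so calls shifted from 45.4% higher to 55.7% higher. The part of the GC trend in any single gene's difference was not tested. Most tested genes described outside the set of repeatedly called genes, defined next, carry their value or adjusted p under the offset. Genes given mainly as counts or levels may lack it. Members of that set were called with the offset by definition.

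**Figure D2:**
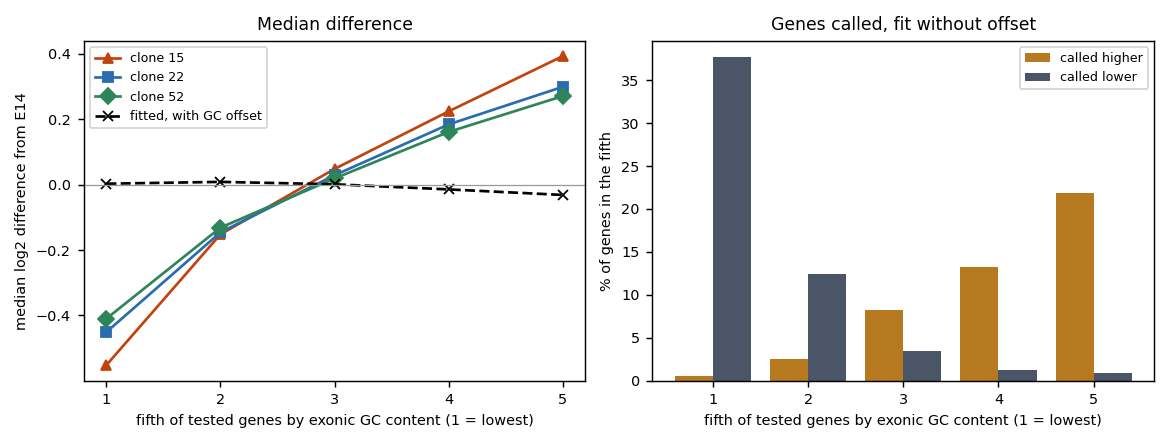
Tested genes in 5 equal groups by transcript GC content (x axis). Left: median log2 difference from E14 in each Dux-KO library (coloured lines) and of the fitted value with the GC offset (dashed), which stays near 0; right: percentage of genes called higher and lower without the offset, from 37.7% lower in the first group to 21.9% higher in the last.

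A set of 460 genes (3.11% of those tested) was called in the same direction in the fit as deposited, with the GC offset and in each of the 6 fits that left out 1 library. It held 240 higher genes (1.62%) and 220 lower genes (1.49%), named here the repeatedly called genes. With an offset for GC and length together, 228 of the 240 and 209 of the 220 were called. The GC difference had not gone: the median GC content was 55.3% for the higher genes, 43.2% for the lower genes and 50.1% for all tested genes. Of the 240 higher genes 16 lay on chromosome 6 (6.67%), and of the 220 lower genes 1 did (0.45%), against 4.66% of all tested genes. In these 460 genes the library labelled 22 was nearest to E14 for 62.2%.

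Among the repeatedly called genes with a mean log2 CPM not under 1, the largest fitted rise was in Rhobtb1 (ENSMUSG00000019944, chromosome 10, 69151434 to 69291791). It had 0.170, 0.452 and 0.219 CPM in E14 and 11.8, 1.58 and 4.47 CPM in the Dux-KO libraries labelled 15, 22 and 52 (log2 fold change 4.30, SE 0.71, adjusted p 0.0034; 4.12 with the GC offset, adjusted p 0.014). Its 3 Dux-KO values spread widely, with the library labelled 15 the highest and the one labelled 22 the lowest, and none overlapped E14. Its E14 values rest on 3, 8 and 4 counts, close to the 3 counts that a count of 0 allows, so the size of the fold is imprecise.

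Stra8 (ENSMUSG00000029848, chromosome 6, 34920163 to 34939344), the retinoic acid induced gene that opens meiosis in germ cells, was next. It had 2.38, 2.26 and 2.19 CPM in E14 and 84.5, 9.42 and 22.4 in the Dux-KO libraries (log2 fold change 4.01, SE 0.79, adjusted p 0.0069). E14 lay within a narrow range and the library labelled 15 stood far above the other Dux-KO libraries. Stra8 lies on chromosome 6, and the part of that chromosome's rise in its difference was not tested.

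Several of the 15 largest rises encode enzymes or signalling proteins. Ggt1, the gamma-glutamyl transferase that breaks down extracellular glutathione, had 1.59, 1.92 and 1.80 CPM in E14 and 23.7, 7.16 and 16.9 in the Dux-KO libraries (3.10 ± 0.48, adjusted p 0.0030, log2 fold change with SE). Ptges, which makes prostaglandin E2, had 2.89, 3.45 and 2.90 CPM in E14 and 47.0, 5.16 and 28.4 in the Dux-KO libraries (3.05 ± 0.59, adjusted p 0.0065). The library labelled 22 was near E14 for Ptges and those labelled 15 and 52 were not. Nos3, the endothelial nitric oxide synthase, had 3.62, 4.52 and 3.39 CPM in E14 and 24.4, 14.9 and 25.5 in the Dux-KO libraries (2.44 ± 0.23, adjusted p 0.0013), and all 3 Dux-KO libraries were high. Prrx2, a homeobox gene of mesenchyme, had 0.793, 1.86 and 1.69 CPM in E14 and 18.2, 4.47 and 11.4 in the Dux-KO libraries (2.90 ± 0.47, adjusted p 0.0033). Pou2f3, a POU factor of tuft cells and keratinocytes, had 2.38, 2.83 and 3.01 CPM in E14 and 25.3, 4.79 and 12.7 in the Dux-KO libraries (2.31 ± 0.46, adjusted p 0.0071). Here again the library labelled 22 rose least.

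Cytoskeletal and neuronal genes were also in the group. Tuba3a, a testis alpha-tubulin, had 12.3, 14.6 and 12.6 CPM in E14 and 127, 26.8 and 60.9 in the Dux-KO libraries (2.37 ± 0.43, adjusted p 0.0050). Cntnap2, a neurexin-family adhesion protein, had 2.72, 2.60 and 2.13 CPM in E14 and 21.7, 7.58 and 15.96 in the Dux-KO libraries (2.54 ± 0.41, adjusted p 0.0033), and its fold change was 2.77 with the GC offset, adjusted p 0.0095, larger than without it. Pacsin1, an endocytic adaptor of neurons, had 3.51, 3.50 and 3.44 CPM in E14 and 32.8, 10.1 and 16.8 in the Dux-KO libraries (2.44 ± 0.49, adjusted p 0.0071). The E14 libraries agreed closely in all 3 genes. The rule also named Dnaic2 (a dynein chain of cilia, log2 3.48), Lrrc75a (3.11), Psors1c2 (2.93), Il17rc (a chain of the interleukin-17 receptor, 2.82) and Igdcc3 (2.34). Tuba3a, Cntnap2 and Il17rc lie on chromosome 6. In all 15 genes the library labelled 22 was the nearest to E14, and in 13 the one labelled 15 was the farthest.

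**Figure D3:**
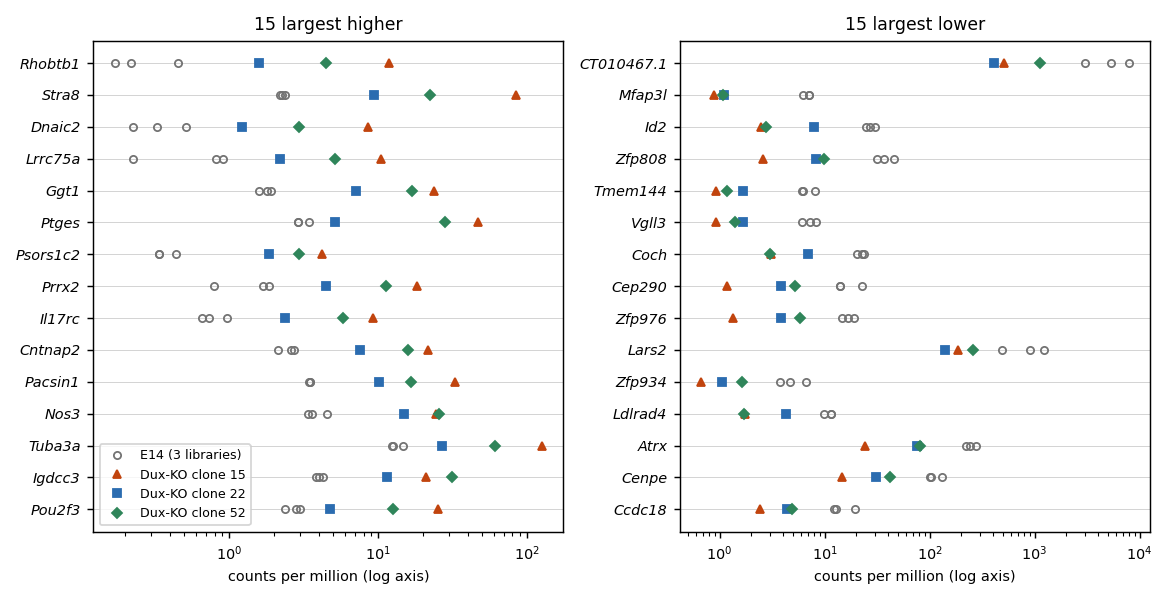
CPM (log axis) of the 15 largest higher and 15 largest lower repeatedly called genes in each of the 6 libraries; E14 as open grey circles, the Dux-KO libraries labelled 15, 22 and 52 as triangles, squares and diamonds. No gene overlaps between the groups, and on the left every square (library labelled 22) is the Dux-KO point closest to E14.

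The largest fall was in CT010467.1 (ENSMUSG00000106106, chromosome 17, 39846353 to 39848827), annotated as ribosomal RNA. It had 5291, 3025 and 7903 CPM in E14 and 506, 410.4 and 1123 in the Dux-KO libraries (log2 fold change -3.05, SE 0.42, adjusted p 0.0020). Lars2, the mitochondrial leucyl-tRNA synthetase, had 898, 488 and 1236 CPM in E14 and 188, 141 and 261 in the Dux-KO libraries (-2.21 ± 0.30, adjusted p 0.0020). Both genes were highest in E14 3 and lowest in E14 2 among E14 libraries, and both were highest in the library labelled 52 among Dux-KO. The part of the ribosomal RNA level in the Lars2 difference was not tested. In the DMSO set, WT had 522 and 467 CPM of CT010467.1 and 245 and 231 CPM of Lars2. These WT values lay within the range of the untreated Dux-KO libraries and below every untreated E14 library.

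Among protein-coding genes, Mfap3l (ENSMUSG00000031647, chromosome 8, 60632827 to 60676729) fell most, with 7.14, 7.12 and 6.23 CPM in E14 and 0.877, 1.10 and 1.08 in the Dux-KO libraries (log2 fold change -2.78, SE 0.32, adjusted p 0.0016; -2.33 with the GC offset, adjusted p 0.0055). All 3 Dux-KO libraries were low and close together. Coch, which encodes cochlin, had 23.8, 22.6 and 20.4 CPM in E14 and 3.10, 6.94 and 3.00 in the Dux-KO libraries (-2.38 ± 0.36, adjusted p 0.0026). Vgll3, a cofactor of TEAD transcription factors, had 7.19, 8.31 and 6.12 CPM in E14 and 0.929, 1.68 and 1.42 in the Dux-KO libraries (-2.46 ± 0.37, adjusted p 0.0027), and Tmem144 had 8.10, 6.27 and 6.12 CPM in E14 and 0.929, 1.68 and 1.19 in the Dux-KO libraries (-2.46 ± 0.36, adjusted p 0.0023). Values in these genes were low in each Dux-KO library, the one labelled 22 included. The WT libraries in DMSO were also far below untreated E14 in these genes. They had 2.05 and 2.32 CPM for Mfap3l, 3.20 and 3.76 for Coch, 1.15 and 1.60 for Vgll3 and 2.20 and 1.54 for Tmem144.

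The group also held Zfp808, Zfp976, Zfp934, Atrx, Cep290 and Ccdc18. Zfp808, a KRAB-type zinc finger gene, had 46.1, 31.6 and 37.0 CPM in E14 and 2.58, 8.26 and 9.85 in the Dux-KO libraries (-2.51 ± 0.38, adjusted p 0.0028), and the offset reduced the change to -1.73. Zfp976 and Zfp934 changed by -2.25 and -2.21, and by -1.57 and -1.42 with the offset. Atrx, a chromatin remodeller that deposits histone H3.3 at repeats, had 277, 223 and 242 CPM in E14 and 24.0, 76.7 and 81.1 in the Dux-KO libraries (-2.06 ± 0.35, adjusted p 0.0037). Cep290, a protein of the ciliary base, had 22.8, 14.1 and 13.99 CPM in E14 and 1.19, 3.84 and 5.21 in the Dux-KO libraries (-2.36 ± 0.42, adjusted p 0.0044), and Ccdc18 changed by -1.97 (-1.17 with the offset). These are low-GC transcripts, from 36.3% in Zfp808 and 36.3% in Ccdc18 to 39.5% in Atrx. In the DMSO set, WT was nearer to untreated E14 for Zfp808 (29.5 and 26.7 CPM), Cep290 (14.6 and 14.2) and Atrx (175 and 174). The remaining gene of the 15 outside the groups described later is Ldlrad4, an inhibitor of TGF-beta signalling, at -2.12.

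Genes of glycolysis and of the hypoxia response formed the list with the highest median in the fit of all 10 libraries. HIF transcription factors activate these genes when oxygen is low, and ES cells use glycolysis heavily in normal oxygen. Of 39 tested members, 14 were called higher and 0 lower (background 9.26% and 11.1%), with a median of 0.65 (log2) against 0.02 for all tested genes. The medians were 0.82, 0.48 and 0.42 in the libraries labelled 15, 22 and 52. With the GC offset 7 were called higher and 1 lower and the median was 0.57. The count of higher calls was 6 without E14 1, 9 without E14 2 and 6 without E14 3, and without the library labelled 22 it was 18, with 1 lower. The list was not the highest in every setting: without Dux-KO 15 its median was 0.46 beside 0.59 for the feeder fibroblast list, and with DESeq2 it was 0.66 beside 0.73 for the trophoblast list.

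The promoters of 3 of its repeatedly called members are shown because the list is defined by a shared regulator. They are the 250 bases before the annotated start, from RefSeq (GRCm38.p6), with the hypoxia response core ACGTG or GCGTG, on either strand, in capitals.
Slc16a3 (chr11:120948817-120949066, plus strand): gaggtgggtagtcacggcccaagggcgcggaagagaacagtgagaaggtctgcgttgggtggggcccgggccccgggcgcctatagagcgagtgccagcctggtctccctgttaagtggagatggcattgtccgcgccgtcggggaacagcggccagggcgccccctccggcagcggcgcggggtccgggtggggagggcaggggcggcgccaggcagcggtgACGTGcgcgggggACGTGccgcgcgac
Ldha (chr7:46845554-46845803, plus strand): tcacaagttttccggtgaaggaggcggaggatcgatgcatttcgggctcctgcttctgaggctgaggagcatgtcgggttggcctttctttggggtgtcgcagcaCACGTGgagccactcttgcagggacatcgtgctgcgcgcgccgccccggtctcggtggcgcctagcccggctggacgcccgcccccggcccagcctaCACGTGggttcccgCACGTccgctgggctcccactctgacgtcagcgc
Tpi1 (chr6:124814159-124814408, minus strand): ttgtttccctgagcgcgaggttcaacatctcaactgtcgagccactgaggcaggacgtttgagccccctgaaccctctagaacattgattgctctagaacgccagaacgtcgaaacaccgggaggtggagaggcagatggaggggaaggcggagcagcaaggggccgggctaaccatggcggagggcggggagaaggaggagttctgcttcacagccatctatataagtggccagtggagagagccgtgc
The core ACGTG occurred 2 times in the Slc16a3 window and 5 times in the Ldha window shown, where the palindrome CACGTG counts on both strands. RefSeq gives Ldha a second start, whose window (chr7:46846832-46847081) held no ACGTG and 1 GCGTG. The Tpi1 window held neither core. Of 49 RefSeq promoters that matched 33 list genes, 77.6% held either core, against 38.6% of all 32851 promoters of that length. The genes were listed for that regulator, so the share is partly set by their choice. It covers members whether called or not, was not matched for GC content, and draws no conclusion about these libraries. A match in these letters is a description and not a binding site.

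The glucose and lactate steps of the list behaved as follows. Slc16a3 (ENSMUSG00000025161, chromosome 11, 120948480 to 120960868), the lactate exporter MCT4, had 40.2, 45.3 and 44.6 CPM in E14 and 247, 118 and 125 in the Dux-KO libraries (log2 fold change 1.85, SE 0.30, adjusted p 0.0033; 1.53 with the GC offset, adjusted p 0.018). Tpi1, triosephosphate isomerase, had 244, 269.7 and 240.5 CPM in E14 and 1175, 491 and 606 in the Dux-KO libraries (1.53 ± 0.25, adjusted p 0.0033; 1.31 with the GC offset, adjusted p 0.017). Tpi1 lies on chromosome 6, in the window with the median rise in the libraries labelled 15 and 52, yet it was also high in the one labelled 22. Ldha, lactate dehydrogenase A, had 999.7, 1018 and 997 CPM in E14 and 1837, 1544 and 1449 in the Dux-KO libraries (0.63 ± 0.10, adjusted p 0.0032; 0.52 with the GC offset, adjusted p 0.020). E14 values of Ldha lay within a narrow band and all Dux-KO values above it. Aldoa, an aldolase, had 1070, 1080 and 1063 CPM in E14 and 2006, 1604 and 1540 in the Dux-KO libraries (0.63 ± 0.11, adjusted p 0.0048), and it was not called with the offset (0.31, adjusted p 0.086).

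Outside the naming rule, 2 members were chosen after their values were seen, for their size. Ndufa4l2, a HIF target of the mitochondrial respiratory chain, had 0.566, 1.07 and 0.929 CPM in E14 and 27.6, 7.10 and 8.21 in the Dux-KO libraries (3.98 ± 1.11, adjusted p 0.027; 3.55 with the GC offset, adjusted p 0.067). Egln3, the oxygen-sensing prolyl hydroxylase PHD3, had 7.14, 6.33 and 5.52 CPM in E14 and 51.4, 19.9 and 22.8 in the Dux-KO libraries (2.25 ± 0.54, adjusted p 0.015; 2.13 with the GC offset, adjusted p 0.043). In both genes the library labelled 15 was well above the other Dux-KO libraries, and all 3 lay above E14.

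Cholesterol and fatty acid synthesis genes, which SREBP factors activate when sterols are low, were also called higher more often than lower. Of 30 tested members 13 were called higher and 0 lower, with a median of 0.38, and the medians of the libraries labelled 15, 22 and 52 were alike (0.39, 0.43 and 0.38). With the GC offset 9 were called higher and 0 lower. The count of higher calls was 4 without E14 1, 6 without E14 2 and 4 without E14 3. Over all tested genes higher calls also fell, from 1370 to 373, 701 and 442 in these fits and to 530 with the offset. Fdft1, squalene synthase, had 37.5, 44.8 and 40.4 CPM in E14 and 72.6, 62.6 and 67.6 in the Dux-KO libraries (0.68 ± 0.11, adjusted p 0.0032; 0.55 with the GC offset, adjusted p 0.019). Dhcr7, the last step of the pathway, had 42.7, 45.6 and 43.5 CPM in E14 and 98.4, 67.9 and 71.7 in the Dux-KO libraries (0.80 ± 0.16, adjusted p 0.0078), and Scd2, a fatty acid desaturase, had 514, 529.6 and 506 CPM in E14 and 748, 828 and 926 in the Dux-KO libraries (0.65 ± 0.14, adjusted p 0.0091). In these 3 genes the library labelled 22 lay above all E14 libraries, as the others did. It was the Dux-KO library nearest to E14 for Fdft1 and Dhcr7, and for Scd2 the one labelled 15 was. Mvd, which makes isopentenyl pyrophosphate, had 46.9, 52.9 and 50.3 CPM in E14 and 110.0, 76.8 and 77.9 in the Dux-KO libraries (0.77 ± 0.13, adjusted p 0.0033), and its value with the offset missed the threshold narrowly (0.39, adjusted p 0.050).

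Targets of ATF4, the factor that raises amino acid synthesis and uptake under stress, gave 9 higher and 0 lower of 30 tested, with a median of 0.27. With the GC offset 4 were called higher and the median was 0.11. The count of higher calls was 3 without E14 1, 5 without E14 2 and 4 without E14 3. Aldh18a1, the first enzyme of proline synthesis, had 132, 140.0 and 137 CPM in E14 and 246, 199 and 225 in the Dux-KO libraries (0.66 ± 0.09, adjusted p 0.0020; 0.45 with the GC offset, adjusted p 0.020). Cebpb, a transcription factor, had 3.06, 5.14 and 3.55 CPM in E14 and 11.1, 14.4 and 19.8 in the Dux-KO libraries (1.90 ± 0.31, adjusted p 0.0032; 1.40 with the GC offset, adjusted p 0.028), and here the library labelled 52 was the highest. Chac1, which cleaves glutathione, had 63.5, 68.3 and 60.0 CPM in E14 and 122, 119.8 and 135 in the Dux-KO libraries (0.93 ± 0.20, adjusted p 0.0095), and Pycr1, the last enzyme of proline synthesis, had 46.0, 49.2 and 47.3 CPM in E14 and 116, 67.0 and 77.1 in the Dux-KO libraries (0.81 ± 0.18, adjusted p 0.010). Neither Chac1 nor Pycr1 was called with the offset (adjusted p 0.099 and 0.057).

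Germline and meiosis genes gave 9 higher and 0 lower of 33 tested, with a median of 0.38. With the offset the counts were again 9 and 0, with Aurkc and Zp3 lost and Smc1b and Hormad1 gained, and the median was 0.50. The count of higher calls as deposited was 4 without E14 1, 5 without E14 2 and 4 without E14 3. Sohlh2, a transcription factor of early germ cells, had 12.9, 13.6 and 16.1 CPM in E14 and 68.7, 24.2 and 40.8 in the Dux-KO libraries (1.59 ± 0.29, adjusted p 0.0047; 1.63 with the GC offset, adjusted p 0.017). Kit, the receptor that germ cells need to survive, had 44.6, 42.9 and 42.5 CPM in E14 and 70.2, 57.9 and 82.1 in the Dux-KO libraries (0.64 ± 0.13, adjusted p 0.0066). Piwil2, a Piwi protein that silences transposons with piRNAs, had 6.57, 5.03 and 7.11 CPM in E14 and 17.3, 10.1 and 12.2 in the Dux-KO libraries (1.02 ± 0.22, adjusted p 0.0091). With Stra8, these were the repeatedly called members named by the rule, and the library labelled 22 was the Dux-KO library nearest to E14 in all 4. Aurkc, a meiotic Aurora kinase chosen after its values were seen, had 0.566, 0.283 and 0.164 CPM in E14 and 18.5, 4.79 and 2.38 in the Dux-KO libraries (4.58 ± 1.34, adjusted p 0.033; 4.45 with the GC offset, adjusted p 0.068). Retinoic acid response genes, which include Stra8, gave 3 higher and 0 lower of 18 tested, with a median of 0.25 that fell to 0.03 with the offset. The medians of the libraries labelled 15, 22 and 52 were 0.52, 0.02 and 0.17.

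Targets of p53, which arrests the cell cycle after DNA damage, were more often lower. Of 29 tested members 8 were called lower and 1 higher, with a median of -0.23, and with the GC offset 6 were lower and 0 higher. Perp, a plasma membrane protein of p53-dependent apoptosis, had 35.1, 35.2 and 34.6 CPM in E14 and 11.1, 13.8 and 9.23 in the Dux-KO libraries (log2 fold change -1.66, SE 0.18, adjusted p 0.0014; -1.61 with the GC offset, adjusted p 0.0039). Ccng1, cyclin G1, had 251, 199.5 and 221 CPM in E14 and 94.7, 117 and 111 in the Dux-KO libraries (-1.10 ± 0.14, adjusted p 0.0016; -0.60 with the GC offset, adjusted p 0.022). All 3 Dux-KO libraries were low in both genes. Ckap2 and Trp53inp1 changed by -0.57 and -1.21, and by -0.20 and -0.56 with the offset, where neither was called (adjusted p 0.19 and 0.13).

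Imprinted genes, expressed from 1 parental allele, gave 9 lower and 1 higher of 36 tested, with a median of -0.47. With the offset 4 were lower and 0 higher. The count of lower calls was 2 without E14 1, 5 without E14 2, 4 without E14 3 and 5 without Dux-KO 52. Igf2, the fetal growth factor on chromosome 7, had 6.57, 6.61 and 8.85 CPM in E14 and 1.55, 1.95 and 2.49 in the Dux-KO libraries (log2 fold change -1.93, SE 0.27, adjusted p 0.0022; -2.21 with the GC offset, adjusted p 0.0055), low in all 3 clones. Grb10, a brake on insulin signalling, had 904, 824 and 857 CPM in E14 and 457, 632 and 614 in the Dux-KO libraries (-0.64 ± 0.15, adjusted p 0.013; -0.62 with the GC offset, adjusted p 0.032), and Ube3a, a ubiquitin ligase, had 101, 85.1 and 90.6 CPM in E14 and 24.8, 49.9 and 43.1 in the Dux-KO libraries (-1.27 ± 0.22, adjusted p 0.0041; -0.51 with the GC offset, adjusted p 0.070). The single higher member was Slc22a18, a membrane transporter, with 2.55, 2.37 and 3.55 CPM in E14 and 11.2, 5.63 and 8.21 in the Dux-KO libraries (1.501 ± 0.34, adjusted p 0.012; 1.17 with the GC offset, adjusted p 0.053). A pair of neighbouring noncoding RNAs of chromosome 12 was chosen after the values were seen. Rian had 18, 27 and 20 counts in E14 and 2, 2 and 1 in the Dux-KO libraries, and Meg3 had 7, 8 and 9 counts in E14 and 1, 1 and 0. Both were near the limit of detection in the Dux-KO libraries.

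BMP signalling and its Id targets, inhibitors of differentiation that help keep ES cells pluripotent, gave 5 lower and 2 higher of 20 tested. Their median was -0.06, and over all tested genes 11.1% were lower and 9.26% higher. Lower calls were 3 without E14 1, 3 without E14 3 and 3 without Dux-KO 52. With the offset 2 were lower and 0 higher. Those were Id1, with 89.5, 86.6 and 89.6 CPM in E14 and 49.9, 39.2 and 43.7 in the Dux-KO libraries (log2 fold change -1.05, SE 0.19, adjusted p 0.0045; -1.31 with the GC offset, adjusted p 0.0074), and Id2, with 30.1, 27.4 and 24.6 CPM in E14 and 2.48, 7.89 and 2.77 in the Dux-KO libraries (-2.67 ± 0.54, adjusted p 0.0075; -2.47 with the GC offset, adjusted p 0.028). For Id1 the library labelled 22 was the lowest, and for Id2 it was the highest of the Dux-KO libraries. Bmpr2, a receptor of the pathway, had 24.0, 21.1 and 24.4 CPM in E14 and 6.19, 12.3 and 11.2 in the Dux-KO libraries (-1.27 ± 0.27, adjusted p 0.0085), and was not called with the offset (adjusted p 0.068). Smad7, an inhibitor of BMP and TGF-beta receptors, had 73.5, 77.3 and 71.6 CPM in E14 and 146, 95.0 and 201 in the Dux-KO libraries (0.93 ± 0.22, adjusted p 0.013; 0.62 with the GC offset, adjusted p 0.11).

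In the Hippo pathway, which restrains the coactivator YAP, 3 of 17 tested members were called lower and 1 higher. These few calls stand beside 11.1% lower and 9.26% higher over all tested genes. Lower calls were 1 without E14 1, 2 without E14 2 and 2 without E14 3. Ptpn14, a phosphatase that holds YAP in the cytoplasm, had 31.5, 36.1 and 32.5 CPM in E14 and 9.85, 11.5 and 8.55 in the Dux-KO libraries (log2 fold change -1.78, SE 0.18, adjusted p 0.0013; -1.95 with the GC offset, adjusted p 0.0020), low in all 3 clones. Tead1 fell and Tead2 rose, 2 DNA-binding partners of YAP, with 114, 112 and 111 CPM in E14 and 48.2, 79.4 and 71.3 in the Dux-KO libraries (-0.80 ± 0.18, adjusted p 0.012; -0.68 with the GC offset, adjusted p 0.047) and 21.8, 18.9 and 19.7 CPM in E14 and 46.8, 31.7 and 34.1 in the Dux-KO libraries (0.84 ± 0.19, adjusted p 0.011; 0.49 with the GC offset, adjusted p 0.11). Ccn1, a secreted YAP target, had 13.2, 14.5 and 11.5 CPM in E14 and 7.996, 5.42 and 6.06 in the Dux-KO libraries (-1.06 ± 0.34, adjusted p 0.045; -1.24 with the GC offset, adjusted p 0.049), and lost its call without the library labelled 22 (adjusted p 0.090).

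Adhesion and cytoskeleton genes moved in both directions, with 4 higher and 7 lower of 35 tested and a median of 0.04. All tested genes gave 9.26% higher and 11.1% lower. Lower calls were 1 without E14 1, 3 without E14 2, 1 without E14 3 and 2 without Dux-KO 52. Flnc, filamin C, had 16.03, 18.6 and 17.4 CPM in E14 and 40.6, 33.8 and 39.3 in the Dux-KO libraries (log2 fold change 1.08, SE 0.12, adjusted p 0.0014; 0.72 with the GC offset, adjusted p 0.0097), with its 3 clones at one level. Itgb5, the integrin beta 5 chain, had 59.5, 58.2 and 57.1 CPM in E14 and 27.8, 37.0 and 28.0 in the Dux-KO libraries (-0.95 ± 0.17, adjusted p 0.0045; -1.27 with the GC offset, adjusted p 0.0074). Matrix genes gave 5 higher and 2 lower of 27, and higher calls were 1 without E14 1, 2 without E14 2, 1 without E14 3, 8 without Dux-KO 22 and 2 without Dux-KO 52. Col1a1, a chain of type I collagen, had 0.453, 0.565 and 0.820 CPM in E14 and 3.51, 1.47 and 2.89 in the Dux-KO libraries (2.02 ± 0.41, adjusted p 0.0072), and Col11a1, of type XI collagen, had 6.91, 5.77 and 7.11 CPM in E14 and 0.877, 1.47 and 3.00 in the Dux-KO libraries (-1.94 ± 0.42, adjusted p 0.0094). Thy1, a surface glycoprotein, had 8.72, 8.48 and 9.73 CPM in E14 and 50.1, 19.4 and 40.4 in the Dux-KO libraries (1.96 ± 0.33, adjusted p 0.0037; 1.67 with the GC offset, adjusted p 0.019).

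Thy1 and Col1a1 are also feeder fibroblast markers. The summed level of the 7 feeder markers was 9.21 to 10.7 CPM in E14 and 53.7, 21.0 and 43.5 CPM in the libraries labelled 15, 22 and 52. Thy1 made up most of it, and Col1a1 had at most 3.51 CPM in any library. Col3a1, Lum, Dcn and Postn had no counts, while Col1a1, Col1a2 and Thy1 were detected in each of the 6 libraries. On a longer list of 20 fibroblast genes, 11 were tested, with a median of 0.51 (0.62, 0.31 and 0.42 in the libraries labelled 15, 22 and 52). Col1a1, Thy1 and Fbln1, which encodes the matrix protein fibulin 1, were called higher, and the transcription factor gene Twist1 lower. With the offset 2 were higher and 1 lower. The summed level of the 20 genes was 973 to 1087 CPM in E14 and 1181 to 1804 in the Dux-KO libraries, and the part of fibroblast RNA in the differences was not tested. In bulk RNA, fewer cells of a type and less RNA per cell cannot be told apart.

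Cell cycle genes were listed by phase. Of 32 tested genes of the G1/S step and DNA replication, 9 were called higher and 4 lower (median 0.11), and with the offset 4 were higher and 0 lower (median 0.10). Higher calls were 2 without E14 1, 3 without E14 2, 2 without E14 3, 5 without Dux-KO 22 and 5 without Dux-KO 52. E2f1, the transcription factor that starts S phase, had 34.4, 39.8 and 37.1 CPM in E14 and 83.99, 63.0 and 80.8 in the Dux-KO libraries (log2 fold change 0.98, SE 0.13, adjusted p 0.0017; 0.63 with the GC offset, adjusted p 0.018). Cdt1, which licenses replication origins, had 192, 212 and 193 CPM in E14 and 304, 287 and 279.9 in the Dux-KO libraries (0.50 ± 0.08, adjusted p 0.0037) and was not called with the offset (adjusted p 0.25). Rb1, the retinoblastoma protein that holds E2F factors, had 9.06, 6.16 and 6.39 CPM in E14 and 2.32, 3.68 and 2.26 in the Dux-KO libraries (-1.42 ± 0.31, adjusted p 0.0099; -0.95 with the GC offset, adjusted p 0.070).

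Of 27 tested genes of mitosis, 7 were called lower and 2 higher, and with the offset 4 were lower and 0 higher. Cenpe, a kinetochore motor, had 130.1, 100.3 and 103 CPM in E14 and 14.7, 31.0 and 41.5 in the Dux-KO libraries (-1.98 ± 0.29, adjusted p 0.0025; -1.65 with the GC offset, adjusted p 0.014). Mki67, the Ki-67 coat of mitotic chromosomes, had 308, 265 and 278 CPM in E14 and 59.8, 113 and 151 in the Dux-KO libraries (-1.43 ± 0.26, adjusted p 0.0047; -1.32 with the GC offset, adjusted p 0.019). Kif11, the motor that separates spindle poles, had 253, 222 and 241 CPM in E14 and 122, 151 and 149 in the Dux-KO libraries (-0.81 ± 0.12, adjusted p 0.0023; -0.41 with the GC offset, adjusted p 0.037). In Cenpe and Mki67 the library labelled 15 was the lowest by a wide margin. The list's median was -0.09, and 0.04 with the offset, so the median changed sign. The difference between the phases was not tested.

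Chromatin genes that silence repeats and 2-cell genes were more often called lower than higher. Of 34 tested members of the list of H3K9 methylation and other repressors, 12 were called lower and 2 higher, with a median of -0.23. With the offset 3 were lower and 1 higher. Cbx5, heterochromatin protein HP1 alpha, had 678, 638 and 653 CPM in E14 and 368, 447 and 428 in the Dux-KO libraries (-0.71 ± 0.12, adjusted p 0.0035; -0.34 with the GC offset, adjusted p 0.076). Mga, the DNA-binding subunit of the repressor complex PRC1.6, had 305, 278 and 279 CPM in E14 and 83.2, 154 and 163 in the Dux-KO libraries (-1.15 ± 0.21, adjusted p 0.0049; -0.76 with the GC offset, adjusted p 0.040). Chaf1b, a subunit of the histone chaperone CAF-1, was the repeatedly called member that rose, with 79.6, 92.8 and 84.3 CPM in E14 and 179.7, 136 and 133 in the Dux-KO libraries (0.76 ± 0.13, adjusted p 0.0043; 0.75 with the GC offset, adjusted p 0.018). Most of the 12 lower calls thus did not outlast the GC offset. Over all tested genes lower calls also fell, from 1646 (11.1%) to 421, so this loss was not particular to the list.

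The DNA methylation machinery gave 3 higher and 3 lower of 24 tested. Over all tested genes 9.26% were higher and 11.1% lower, so these few calls are near those shares. Dnmt3a, a de novo methyltransferase, had 63.2, 66.7 and 63.3 CPM in E14 and 143, 128 and 119.8 in the Dux-KO libraries (log2 fold change 0.97, SE 0.14, adjusted p 0.0023; 0.83 with the GC offset, adjusted p 0.014). Tet1, which oxidises 5-methylcytosine, had 783, 753 and 758 CPM in E14 and 274, 463 and 483 in the Dux-KO libraries (-0.95 ± 0.18, adjusted p 0.0065; -0.67 with the GC offset, adjusted p 0.045). Apobec2 had 2.15, 1.98 and 2.24 CPM in E14 and 7.02, 4.84 and 7.02 in the Dux-KO libraries (1.51 ± 0.25, adjusted p 0.0037), and Hells, a remodeller needed for methylation of repeats, had 601, 508 and 549 CPM in E14 and 254, 341 and 346 in the Dux-KO libraries (-0.86 ± 0.14, adjusted p 0.0032; -0.14 with the GC offset, adjusted p 0.38). Dnmt3a was higher and Tet1 lower in all 3 clones, with the smallest Tet1 value in the library labelled 15. The list as a whole had a median of -0.06. In the DMSO set both genes were lower in KO22 than in WT. Dnmt3a changed there by -0.53 (SE 0.04, adjusted p 1.8e-16) and Tet1 by -0.54 (SE 0.03, adjusted p 1.3e-18), so Dnmt3a went the other way. Polycomb and trithorax genes gave 3 higher and 6 lower of 35, and 1 higher and 0 lower with the offset, and lower calls were 2 without E14 1, 3 without E14 2 and 2 without E14 3. Kdm6b, an H3K27 demethylase, was the repeatedly called one, at 49.1, 58.3 and 54.9 CPM in E14 and 112, 95.5 and 107 in the Dux-KO libraries (0.90 ± 0.14, adjusted p 0.0028).

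Of 11 tested genes of the 2-cell embryo, 3 were called lower and 0 higher, and none with the offset, and the median was -1.54. Zscan4c had 29, 33 and 18 counts in E14 and 0, 17 and 5 in the libraries labelled 15, 22 and 52, and Zscan4d had 23, 24 and 42 against 2, 12 and 10. Lower calls were 0 without E14 1, 1 without E14 2, 0 without E14 3, 1 without Dux-KO 15, 6 without Dux-KO 22 and 1 without Dux-KO 52.

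Pluripotency genes were little changed as a list, with 3 higher and 1 lower of 28 tested and a median of 0.01. All tested genes gave 9.26% higher and 11.1% lower. Utf1, a chromatin protein of undifferentiated cells, had 377, 535 and 457 CPM in E14 and 846, 744 and 840.5 in the Dux-KO libraries (0.78 ± 0.16, adjusted p 0.0085; 0.33 with the GC offset, adjusted p 0.22). Lifr, the LIF receptor, had 92.1, 89.8 and 91.3 CPM in E14 and 51.4, 54.2 and 69.7 in the Dux-KO libraries (-0.69 ± 0.13, adjusted p 0.0066; -0.45 with the GC offset, adjusted p 0.058). Tbx3, a T-box factor, had 118, 132 and 122 CPM in E14 and 225, 158 and 335 in the Dux-KO libraries (0.89 ± 0.28, adjusted p 0.042; 0.66 with the GC offset, adjusted p 0.16), with the library labelled 22 nearest to E14. Klf4 had 156, 185 and 161 CPM in E14 and 254, 179.8 and 274 in the Dux-KO libraries (0.44 ± 0.14, adjusted p 0.044; 0.19 with the GC offset, adjusted p 0.39), and one Dux-KO value lay within the E14 range. With the offset none of the list was called in either direction.

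Among lineage genes, 3 of 14 tested mesoderm and streak genes were called higher and 1 lower, 2 of 13 trophoblast genes and 2 of 16 primitive endoderm genes higher and 0 lower, and 0 of 9 neural genes higher and 1 lower. These small counts stand beside 9.26% higher and 11.1% lower over all tested genes. With the offset 1 mesoderm, 1 trophoblast and 0 primitive endoderm genes were called higher, and leaving out any single E14 library gave 1, 1 and 0. Eomes, a T-box factor of primitive streak and trophoblast, had 5.10, 5.93 and 4.15 CPM in E14 and 13.4, 8.05 and 13.1 in the Dux-KO libraries (1.13 ± 0.22, adjusted p 0.0066; 0.91 with the GC offset, adjusted p 0.035). Hand1, of the same lineages, had 0.227, 0.170 and 0.656 CPM in E14 and 5.47, 0.263 and 2.26 in the Dux-KO libraries (2.82 ± 0.86, adjusted p 0.040; 2.47 with the GC offset, adjusted p 0.096), and Map2, a microtubule protein of neurons, had 17.3, 16.9 and 18.2 CPM in E14 and 4.75, 7.26 and 3.11 in the Dux-KO libraries (-1.83 ± 0.31, adjusted p 0.0038; -1.77 with the GC offset, adjusted p 0.016). The epiblast list had medians of -0.65, 0.51 and -0.22 in the libraries labelled 15, 22 and 52, so the one labelled 22 stood on the other side of E14. The neural list had -0.69, 0.15 and -0.05.

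Lists of the ribosome and of protein folding lost their calls under the offset. MYC and ribosome biogenesis genes gave 0 higher and 5 lower of 26 (3 without E14 1), and none with the offset, and Npm1, a nucleolar chaperone, had 3077, 2903 and 2978 CPM in E14 and 2296, 2097 and 1969 in the Dux-KO libraries (-0.54 ± 0.10, adjusted p 0.0044; -0.16 with the GC offset, adjusted p 0.33). Genes of protein folding in the endoplasmic reticulum gave 1 higher and 5 lower of 20 (3 without E14 1, 3 without E14 2 and 3 without E14 3), and none with the offset. The 15 tested mitochondrially encoded genes reversed: 0 higher and 4 lower as deposited, with a median of -0.40 (lower calls were 0 without E14 1, 1 without E14 3 and 2 without Dux-KO 52), and 4 higher and 0 lower with the offset, with a median of 0.37. No direction is given for them.

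**Figure D4:**
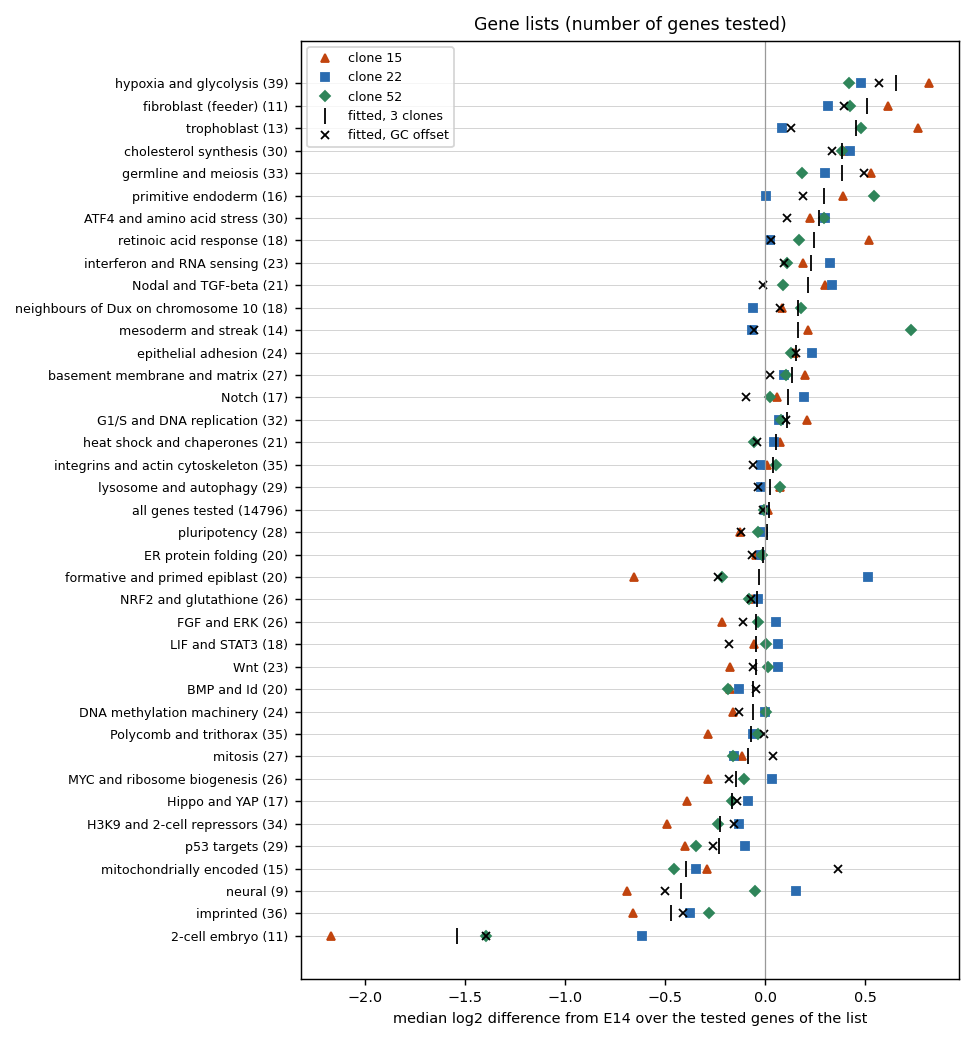
Median log2 difference from E14 over the tested genes of each list, for each Dux-KO library (triangle 15, square 22, diamond 52), for the fit of all 3 clones (bar) and with the GC offset (cross). The hypoxia and glycolysis list is highest at 0.65 and the 2-cell list lowest at -1.54; the cross of the mitochondrially encoded genes lies on the other side of 0.

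Genes in which the library labelled 22 did not follow the other clones were counted by a rule chosen after the values were seen. In 175 genes (mean log2 CPM not under 1), the libraries labelled 15 and 52 differed from E14 by at least 1 (log2) in the same direction while the one labelled 22 stayed within 0.5. Of these 109 were higher and 66 lower. The same rule with the library labelled 15 as the one near E14 gave 7 genes, and with that labelled 52 it gave 13. With GC-adjusted levels the counts were 160, 4 and 12. Over all tested genes, 1115 differed from E14 by at least 1 in the library labelled 22. The numbers were 3472 and 1693 in those labelled 15 and 52. The rule thus favours the library labelled 22 as the near one, and these counts alone do not set it apart. In the DMSO set, which did not enter the rule, 64.0% of the 175 genes differed between KO22 and WT in the direction of the libraries labelled 15 and 52, with a median of 0.30. Over all tested genes, 47.0% were higher in KO22 than in WT. That share is by sign alone and not by the direction of the libraries labelled 15 and 52, so it is not the same measure. Of the 175 genes, 20 lay on chromosome 6, which held 4.66% of all tested genes. Its median was raised in the libraries labelled 15 and 52 and in KO22, and its part in the 64.0% was not tested. The DMSO libraries titled N22 differed from WT in the direction of the libraries labelled 15 and 52 for 21.7% of the 175 genes, with a median of -0.30. No share over all tested genes is given for N22. These 2 DMSO contrasts share the WT libraries.

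The 5 genes of the group with the largest differences are given as levels. In the edgeR fit of all 10 untreated libraries, Cdx1 and Slc38a5 were called higher (adjusted p 0.018 and 0.026). Fgfr2, Esrp1 and Pax6 were not called (adjusted p 0.077, 0.43 and 0.22). With the GC offset Cdx1 was not called either (1.70, adjusted p 0.077). Fgfr2, an FGF receptor of extraembryonic cells, had 9.57, 10.2 and 9.35 CPM in E14 and 1.496, 7.73 and 1.25 in the Dux-KO libraries. Esrp1, an epithelial splicing factor, had 28.6, 32.3 and 30.4 CPM in E14 and 3.35, 41.4 and 5.83 in the Dux-KO libraries. Pax6, a neural and eye transcription factor, had 18.0, 18.3 and 18.8 CPM in E14 and 2.48, 20.1 and 3.74 in the Dux-KO libraries. In each the library labelled 22 was at or near the E14 level and the others were several times lower. Cdx1, a caudal homeobox gene, had 3.57, 4.01 and 3.39 CPM in E14 and 25.9, 4.21 and 20.9 in the Dux-KO libraries, and Slc38a5, an amino acid transporter, had 1.42, 1.07 and 1.75 CPM in E14 and 8.56, 1.89 and 7.42 in the Dux-KO libraries, both high in the libraries labelled 15 and 52 alone. In the DMSO set Fgfr2 had 12.1 and 11.1 CPM in WT and 1.78 and 2.02 CPM in KO22 (log2 -2.62, SE 0.18, adjusted p 5.8e-20), and Pax6 had 9.49 and 9.42 CPM in WT and 2.95 and 2.69 CPM in KO22 (log2 -1.76, SE 0.18, adjusted p 4.5e-13). Cdx1 had 7.29 and 6.18 CPM in WT and 21.9 and 21.8 CPM in KO22 (log2 1.68, SE 0.14, adjusted p 3.6e-16). The KO22 libraries in DMSO were thus on the side of the untreated libraries labelled 15 and 52 in these 3 genes.

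The DMSO libraries also served as other samples for the repeatedly called genes. There 8643 of 16641 genes (51.9%) were called between KO22 and WT, 23.4% higher and 28.5% lower. KO22 carries a single clone number, so this share does not describe knockout clones as a group. Of the 240 repeatedly called higher genes, 33.8% were higher in KO22 and 32.9% lower. Of the 220 lower genes, 28.2% were lower and 19.6% higher. Over all tested genes of the untreated fit the shares were 25.7% higher and 30.5% lower, so the shares in the untreated direction were 33.8% beside 25.7% and 28.2% beside 30.5%. These shares were not tested. Of the 15 largest higher genes 8 were called in the same direction and 4 in the opposite one. Of the 15 largest lower genes 4 were called in the same direction and 0 in the opposite one.

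Cntnap2 and Igdcc3 recurred, with 6.66 and 7.82 CPM in WT and 15.4 and 15.2 CPM in KO22 (log2 1.06, SE 0.13, adjusted p 4.9e-10) and 11.3 and 11.3 CPM in WT and 24.9 and 25.9 CPM in KO22 (log2 1.15, SE 0.11, adjusted p 2.6e-14). Thy1 had 17.3 and 18.6 CPM in WT and 35.0 and 39.8 CPM in KO22 (log2 1.04, SE 0.09, adjusted p 2.7e-15). Ptpn14 was lower there as in the untreated clones (log2 -0.73, SE 0.10, adjusted p 8.1e-09). Stra8 went the other way, with 33.1 and 36.8 CPM in WT and 11.1 and 10.8 CPM in KO22 (log2 -1.69, SE 0.11, adjusted p 8.1e-22), and so did Id1, with 18.7 and 16.3 CPM in WT and 43.8 and 46.1 CPM in KO22 (log2 1.34, SE 0.08, adjusted p 1.4e-24). For Id1 the WT libraries in DMSO were lower than any untreated E14 or Dux-KO library.

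The hypoxia and glycolysis list was opposite in the DMSO set, where 36 of 40 tested members were called lower and 2 higher in KO22, with a median of -0.72. Slc16a3 had 212 and 221 CPM in WT and 76.3 and 72.7 CPM in KO22 (log2 -1.55, SE 0.05, adjusted p 3.6e-38), and Ndufa4l2 had 26.8 and 26.8 CPM in WT and 1.56 and 2.79 CPM in KO22 (log2 -3.62, SE 0.19, adjusted p 1.8e-18). For both genes the WT libraries in DMSO lay within or near the range of the untreated Dux-KO libraries and not at the level of untreated E14. The germline list gave 7 higher and 18 lower of 37, and the cholesterol list 6 higher and 19 lower of 30. The 2-cell list had a negative median in both sets, with 1 higher and 12 lower of 24 tested in DMSO and a median of -4.34. Only 11 members were tested in the untreated fit. The DMSO fit filtered genes over all 12 treated libraries, those titled GSK included. The medians of the 2 sets thus cover different members, and their sizes are not compared. Zscan4d had 32 and 48 counts in WT with DMSO and 0 in both KO22 libraries. The p53 list gave 10 higher and 11 lower of 29, the ATF4 list 13 and 11 of 30, and the mesoderm list 9 and 2 of 18. The sets differ in DMSO and culture time, and the labels do not say whether WT and E14-chen are the same cells. These cannot be told apart.

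**Figure D5:**
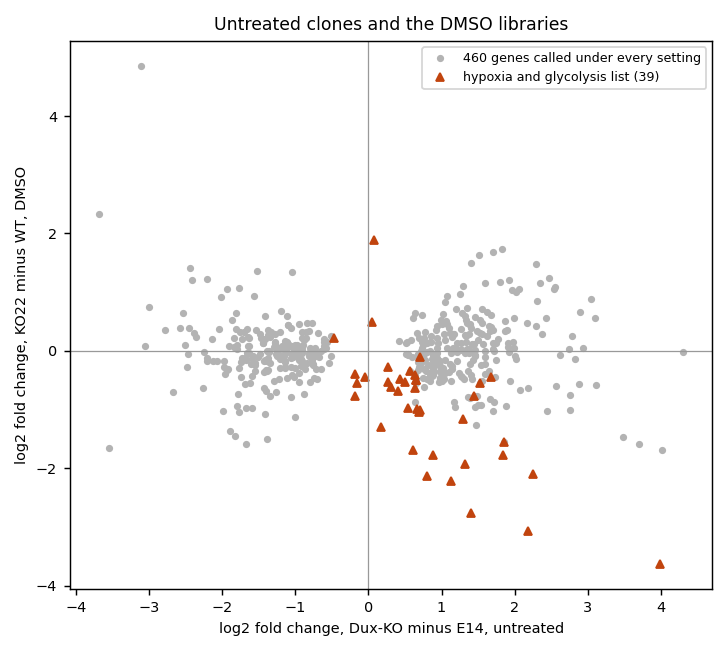
Log2 fold change of the untreated Dux-KO libraries over E14 (x axis) against that of KO22 over WT in DMSO (y axis), for the 460 repeatedly called genes (grey) and the 39 hypoxia and glycolysis genes tested in both sets (triangles). Grey points lie on both sides of 0 in DMSO, and most triangles lie to the right and down.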

How the data were processed

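Total RNA was sequenced, per the labels' protocols. Per the submitters' processing notes, fastp 0.23.2, HISAT2 2.1.0 and featureCounts 2.0.1 were used with GRCm38. The deposited values are raw counts per gene (Ensembl 84), per the file headers, with paired reads, no strand and no multi-mapping reads, so near-identical copies and overlapping or antisense genes are uncertain. All 10 untreated libraries were fitted together with edgeR 4.0.16 (R 4.3.3; TMM, filterByExpr minimum count 10, robust quasi-likelihood test, Benjamini-Hochberg), and the 12 treated libraries likewise. The GC offset is a per-library lowess (span 0.3) of log2 CPM against the GC content of the longest GENCODE M21 transcript. Alternatives were RLE factors, DESeq2 1.42.0, no filter, only the 6 libraries, the offset, and each library left out. Methods were tested on simulated data.

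Members and the 39 lists (949 genes, 827 tested) were chosen with earlier results of these data known, and 3 symbols were respelled after the tables were read. Named genes are Duxf3, Gm4981, Zscan4c and Zscan4d, then the 15 largest repeatedly called changes in each direction (with a symbol, mean log2 CPM of at least 1, no overlap), then, per list, at most 4 tested genes ranked by p. Fewer are printed than the rule allows. Clone levels are TMM log2 CPM (prior count 2) minus the E14 mean. Counting error is smallest in the highest counts, since 3 counts are 0.155 to 0.170 CPM in these 6 libraries.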

Additional observations from a re-analysis of the deposited data

Results flagged for a closer look

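Among the 30 largest repeatedly called genes, 8 had all untreated Dux-KO libraries on one side of all E14 libraries and both DMSO libraries titled KO22 on the opposite side of both WT libraries. The difference between the contrasts was not tested. Higher in the untreated clones and lower in KO22 with DMSO were Stra8 (log2 -1.69 in DMSO), Dnaic2 (-1.47), Lrrc75a (-0.58) and Pacsin1 (-1.01). Lower in the untreated clones and higher in KO22 with DMSO were Mfap3l (0.36), Vgll3 (0.39), Coch (0.30) and Cep290 (0.24), none of which was called in DMSO. Groups of 3 or fewer libraries were not searched for single outlying values.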

How the results depend on the processing

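The number of genes called between Dux-KO and E14 (3016) fell to 951 with the GC offset and 1019 with an offset for GC and length, the latter chosen after seeing the data. Leaving out 1 library gave 931 to 3572 calls. It was 2232 with the offset and without Dux-KO 22, 3667 without Dux-KO 22 and Dux n=1 40 (added after seeing the data), 2980 with RLE factors, 3734 with DESeq2, 2534 without the filter and 3367 with the 6 libraries alone. Of 169 named genes, 73 lost their call with the GC offset. Of these, 5 also reversed in direction: Eif1a (0.066 with the GC offset, 0.017 with GC and length, 0.095 with the offset and without Dux-KO 22), Mtf2 (0.20, 0.20 and 0.28), mt-Nd6 (0.37, 0.42 and 0.46), mt-Nd5 (0.27, 0.20 and 0.34) and mt-Nd4 (0.34, 0.30 and 0.30). Pola1 reversed with GC and length (0.036) and Tfeb with the offset and without Dux-KO 22 (-0.073). Chromosome 6 medians moved by less than the E14 spread when an E14 library was left out: 0.27 to 0.28 for clone 15, -0.10 to -0.08 for 22 and 0.30 to 0.32 for 52.

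No paired analysis was possible because E14 and Dux-KO share no replicate number. In the DMSO set, with 2 numbers shared, a replicate block gave 8655 calls against 8643, and same-numbered libraries did not deviate together (r = -0.008), so the numbers are shared only as names; leaving out 1 library gave 7386 to 7455 calls there. Depth limits Dux-family and Zscan4 genes most, with counts near 0.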

Other observations

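Of 8 further list members, 7 were repeatedly called genes, the exception being B2m, which was not. Gsto1, a glutathione transferase of the omega class, had 26.4, 28.0 and 31.2 CPM in E14 and 15.1, 16.1 and 11.3 CPM in the Dux-KO libraries labelled 15, 22 and 52 (log2 fold change -1.05, SE 0.17, adjusted p 0.0032; -1.18 with the GC offset, adjusted p 0.0072). Dusp4, a phosphatase that limits ERK signalling, had 15.6, 15.2 and 13.3 CPM in E14 and 7.63, 7.89 and 7.19 in the Dux-KO libraries (-1.002 ± 0.20, adjusted p 0.0078). Apc, the scaffold that marks beta-catenin for destruction, had 166, 158 and 165 CPM in E14 and 48.9, 92.7 and 98.6 in the Dux-KO libraries (-1.06 ± 0.21, adjusted p 0.0071; -0.82 with the GC offset, adjusted p 0.039). Notch4, a Notch receptor, had 19.7, 24.5 and 23.1 CPM in E14 and 63.4, 46.3 and 67.4 in the Dux-KO libraries (1.34 ± 0.17, adjusted p 0.0016). H2-D1, a class I histocompatibility antigen, had 14.3, 16.7 and 15.0 CPM in E14 and 38.2, 23.0 and 36.2 in the Dux-KO libraries (1.03 ± 0.19, adjusted p 0.0052), while B2m, its partner chain, had 13.0, 11.8 and 13.3 CPM in E14 and 9.23, 5.21 and 6.06 in the Dux-KO libraries (-0.95 ± 0.26, adjusted p 0.025; -0.45 with the GC offset, adjusted p 0.30). Bag3, a cochaperone of Hsp70, had 27.0, 36.6 and 32.2 CPM in E14 and 63.8, 61.8 and 55.0 in the Dux-KO libraries (0.87 ± 0.16, adjusted p 0.0054), and Spint2, an inhibitor of serine proteases, had 148, 163 and 150.0 CPM in E14 and 218, 204 and 214 in the Dux-KO libraries (0.42 ± 0.08, adjusted p 0.0075).

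Correlations of log2 CPM over all tested genes, which share depth and base composition within a library, are given as a description. The library labelled Dux-KO 52 was closest to Dux n=1 40 (r = 0.988) and the one labelled Dux-KO 22 to Dux n=1 31 (r = 0.987). The one labelled Dux-KO 15 was the farthest from E14, at 0.936 to 0.942.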
